A study of Mus musculus with 46 samples.

Results

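The costimulatory receptors of the tumor necrosis factor (TNF) receptor family and their ligands were followed in MC-38 tumors after PD-1 blockade or PD-1 deletion. The set was given by name and holds 10 of the 48795 genes of the expression table: the receptors Tnfrsf9 (4-1BB), Tnfrsf4 (OX40), Tnfrsf18 (GITR), Cd27 and Cd40, and the ligands Tnfsf9 (4-1BB ligand), Tnfsf4 (OX40 ligand), Cd70, Cd40lg (CD40 ligand) and Tnfsf14 (LIGHT). All 10 have a row, and the rule names genes and sets no limit on their values. RNA from 46 samples had been sequenced, of which 43 were tumors and 3 were cultured MC-38 cells, a mouse colon carcinoma line.

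The antibody study used female wild-type C57BL/6NTac mice of 8 to 10 weeks with MC-38 cells under the skin of the right flank. Of these mice, 3 gave baseline tumors with no treatment, 5 received 1 dose and 5 received 2 doses of an isotype control antibody, and 5 and 5 received the same number of doses of the PD-1 antibody muDX400 (PD-1 Ab, 5 mg/kg into the peritoneum). Tumors were taken at label day 4 after 1 dose and label day 8 after 2 doses, which the methods give as days 11 and 15 after implantation. In the conditional knockout study, 10 mice labelled PD-1cKO carried loxP sites on both sides of exons 2 and 3 of Pdcd1 (Pdcd1 fl/fl) and the ROSA26-creERT2 allele, a tamoxifen-dependent Cre that is active in all tissues and not in T cells alone. Their 10 controls were littermates labelled WT, and both groups received tamoxifen (40 mg/kg on 5 consecutive days). These mice too were females of 8 to 10 weeks, and the loxP allele was made in C57BL/6NTac embryonic stem cells. The methods call the controls wild-type but also describe Pdcd1 fl/fl mice bred without creERT2. Which alleles the mice labelled WT carried is therefore not certain. The label of both groups is day 28, while one place in the methods gives day 22.

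All values are FPKM, fragment counts scaled to gene length and to the total mapped in the library, so levels of different genes are on one scale per unit of length. The table holds no read totals, so no depth per library is given. The gene-level value of Pdcd1 could not check the deletion: it was 1.71 to 7.02 FPKM in the WT tumors and 5.05 to 19.9 FPKM in the tumors labelled PD-1cKO. The leukocyte gene Ptprc was at or below 0.0078 FPKM in the cultures and at 9.11 to 89.9 FPKM in the tumors. In replicate 1 of the 1-dose isotype group mitochondrial genes made up 54.6% of the summed FPKM, against at most 7.65% in any other sample, and Cd27, Tnfrsf4, Tnfsf4 and Tnfsf14 were listed at 0 there. The 1-dose results and the difference between doses are given with and without it. Short noncoding RNAs took 30.2 to 66.5% of the summed FPKM in the conditional knockout study and at most 0.0746% in the antibody study, so absolute levels are not compared between the studies. The sample identifiers of the conditional knockout study fall into 3 runs of numbers. The first run holds 7 PD-1cKO and no WT tumors, the second 1 and 9, and the third 2 and 1, so the run and the genotype largely cannot be told apart.

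T cells need a second signal beside the antigen receptor to divide and survive, and these receptors give one. 4-1BB, OX40 and GITR appear on T cells after activation, and OX40 and GITR are also high on regulatory T cells, whereas CD27 is already present on resting T cells. Their ligands are displayed mainly by activated antigen-presenting cells. CD40 works in the opposite direction, since the receptor sits on dendritic cells, B cells and macrophages and the ligand on activated helper T cells. The receptors signal through TRAF adaptors to the NF-kB transcription factors.

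The members lie in a few clusters on GRCm38 (GENCODE M21 positions). Tnfrsf9 (chr4:150914562-150946102), Tnfrsf4 (chr4:156013843-156016612) and Tnfrsf18 (chr4:156026164-156028895) are on the plus strand of chromosome 4. Tnfrsf4 and Tnfrsf18 lie 9551 bases apart with 0 protein-coding genes between them. Tnfsf9 (chr17:57105325-57107757, plus strand), Cd70 (chr17:57145997-57149777, minus strand) and Tnfsf14 (chr17:57189492-57194177, minus strand) are neighbours on chromosome 17, with gaps of 38239 and 39714 bases and 0 protein-coding genes in either gap. The others are alone: Cd27 (chr6:125232622-125237010, minus strand), Cd40 (chr2:165055627-165072948, plus strand), Tnfsf4 (chr1:161395409-161418410, plus strand) and Cd40lg (chrX:57212143-57224042, plus strand).

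The 250 bases before the start site are shown for 4 members, of which Tnfrsf4, Cd27 and Tnfsf14 rose with PD-1 Ab and Tnfrsf9 did not (RefSeq promoter table, GRCm38.p6, which held 5 of the 10 members). Each was searched on both strands for NFAT (TGGAAA), AP-1 (TGANTCA), RUNX (TGTGGT), the TATA box (TATAAA) and NF-kB. Capitals mark the matches. No other motif overlapped them in these 4 windows.
Tnfrsf9, chr4:150919905-150920154, plus strand: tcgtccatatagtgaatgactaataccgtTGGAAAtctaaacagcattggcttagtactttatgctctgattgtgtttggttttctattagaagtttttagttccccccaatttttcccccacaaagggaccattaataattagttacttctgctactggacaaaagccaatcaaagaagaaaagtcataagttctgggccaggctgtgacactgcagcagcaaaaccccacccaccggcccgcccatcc
Tnfrsf4, chr4:156013445-156013694, plus strand: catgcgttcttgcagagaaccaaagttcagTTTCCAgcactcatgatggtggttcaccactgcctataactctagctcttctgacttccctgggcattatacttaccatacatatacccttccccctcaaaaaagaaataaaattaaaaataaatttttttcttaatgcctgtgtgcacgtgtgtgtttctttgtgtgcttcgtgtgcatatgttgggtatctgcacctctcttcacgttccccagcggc
Cd27, chr6:125237028-125237277, minus strand: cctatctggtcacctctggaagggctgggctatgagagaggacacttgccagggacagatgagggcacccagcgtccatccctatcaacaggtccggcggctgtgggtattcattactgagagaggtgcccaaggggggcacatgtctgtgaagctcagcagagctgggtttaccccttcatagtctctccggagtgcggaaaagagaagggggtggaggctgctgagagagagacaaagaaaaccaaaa
Tnfsf14, chr17:57194182-57194431, minus strand: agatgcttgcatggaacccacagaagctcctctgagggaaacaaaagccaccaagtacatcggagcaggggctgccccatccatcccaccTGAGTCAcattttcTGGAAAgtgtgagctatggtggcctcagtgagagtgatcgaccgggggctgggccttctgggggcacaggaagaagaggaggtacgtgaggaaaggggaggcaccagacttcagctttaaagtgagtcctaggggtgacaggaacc

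Tnfrsf9 held an NFAT match 221 bases before its start. Tnfrsf4 held one on the minus strand (read as TTTCCA) at 220 bases. Tnfsf14 held an AP-1 match at 160 bases and an NFAT match at 146 bases, and Cd27 had none of the motifs in this window. A second Tnfrsf9 start, whose window overlaps exons, had an NF-kB match 43 bases before it (GGGGATTTCC, chr4:150927956-150927965), an overlapping NF-kB match at 42 bases (GGGATTTCCC), and an AP-1 match at 15 bases (TGAGTCA, chr4:150927984-150927990). The Tnfrsf18 window overlaps exons and held none. Among all 32851 promoters of the same length, 18.6% held NFAT, 6.75% AP-1, 14% RUNX, 12.4% TATA and 7.25% NF-kB, so such matches are common.

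After 2 doses of PD-1 Ab, 5 of the 8 members that could be tested rose, namely the receptors Cd27, Tnfrsf18, Tnfrsf4 and Cd40 and the ligand Tnfsf14. Tnfrsf9 and its ligand Tnfsf9, which had the highest levels of their kind, did not pass the test, nor did Tnfsf4. A gene was called when the adjusted p was under 0.01 and the change at least 2-fold (limma on log2(FPKM + 0.1), Benjamini-Hochberg over all genes whose group mean reached 0.5 FPKM on at least 1 side). Of the 15062 genes tested, 5.03% were called higher and 0.272% lower. Tnfsf14 reached 0.5 FPKM only in the treated group (means 1.24 against 0.372 FPKM). It could therefore enter this test only by being higher there, and its place in the counts of members carries that selection. The median log2 change was 1.45 over the 8 members and −0.04 over all genes. Every treated tumor was above every isotype tumor in the same 5 members, as in 9.23% of all genes tested. Fold changes are on the log2(FPKM + 0.1) scale, which understates the change of low genes.

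**Figure D1:**
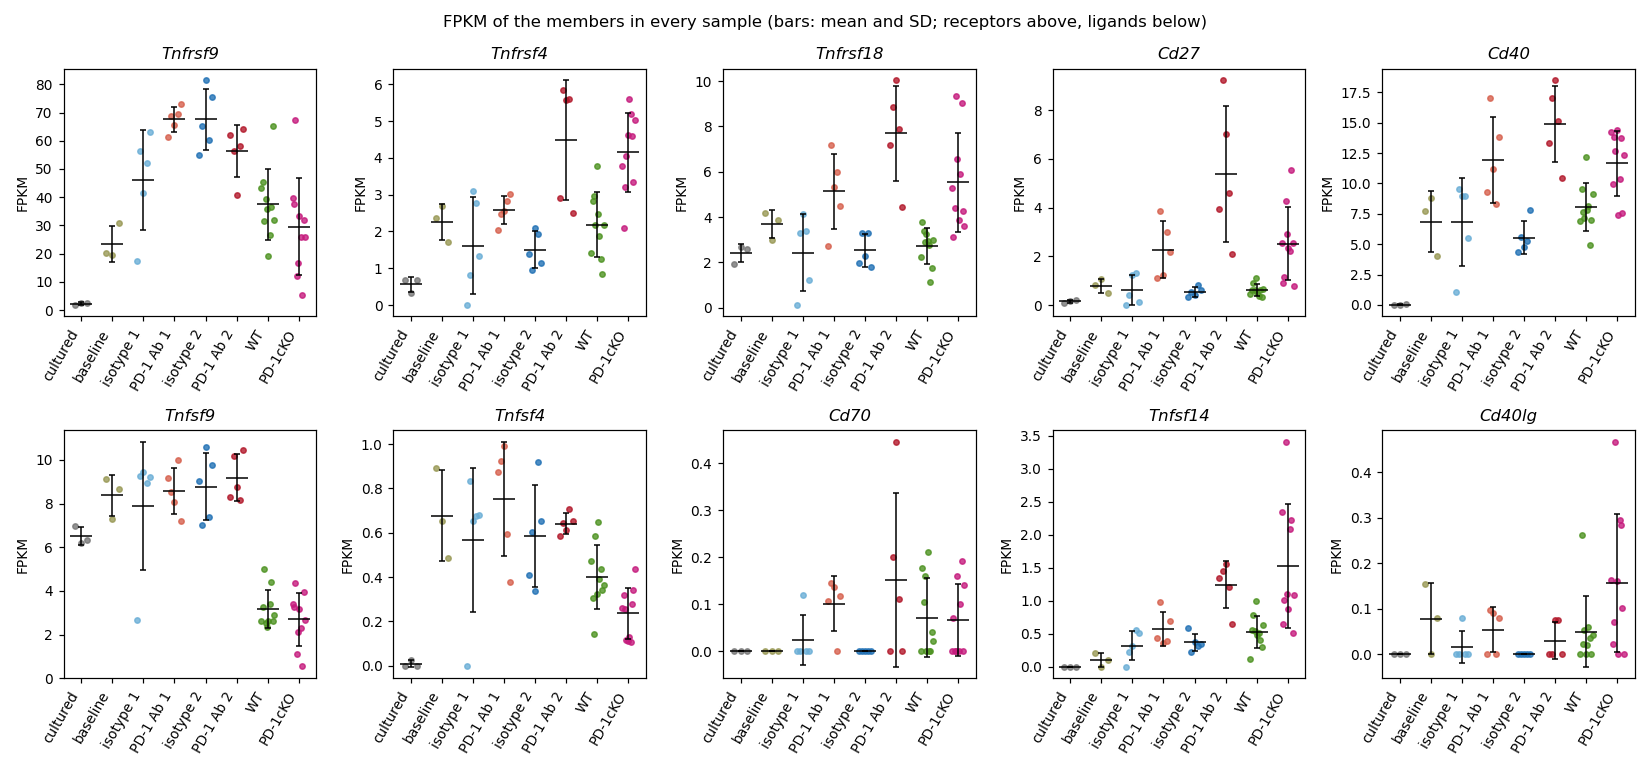
FPKM of the 10 members (receptors above, ligands below) in all 46 samples by group, each point 1 sample, with the mean and SD as bars. Cd27 sits at 2.11 to 9.25 FPKM after 2 doses of PD-1 Ab against 0.322 to 0.832 FPKM in the isotype tumors, whereas the Tnfrsf9 groups overlap.

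Cd27, the receptor for CD70, changed most among the members. Its level in the 5 isotype tumors was 0.322, 0.535, 0.401, 0.832 and 0.617 FPKM, and in the 5 tumors with 2 doses of PD-1 Ab it was 3.96, 9.25, 7.01, 4.60 and 2.11 FPKM. The groups do not overlap. The ratio of the means was 9.95 (5.38 ± 2.78 against 0.541 ± 0.199 FPKM, SD, n = 5 each), and the log2 change was 2.99 with an SE of 0.37 (limma, adjusted p = 0.000885). In the WT tumors Cd27 ran from 0.333 through a median of 0.608 to 1.11 FPKM, and in the PD-1cKO tumors from 0.779 through 2.43 to 5.56 FPKM. Thus 8 of the 10 PD-1cKO tumors lay above every WT tumor and all 10 above the WT median, with a log2 change of 1.71 and an SE of 0.30 (limma, adjusted p = 0.000815). Of the 50-base stretches in its exons 3.31% also occur in other genes, and 129 of its exon bases are shared with the microRNA gene Mir8113.

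Tnfrsf18 (GITR) was at 1.97, 3.30, 2.27, 3.30 and 1.82 FPKM in the isotype tumors. It was at 7.20, 8.85, 10.1, 7.87 and 4.47 FPKM after 2 doses of PD-1 Ab. All treated tumors were higher, with a log2 change of 1.56 and an SE of 0.24 (limma, adjusted p = 0.00172). WT tumors ran from 1.15 through 2.92 to 3.79 FPKM and PD-1cKO tumors from 3.10 through 4.84 to 9.33 FPKM. There 8 of 10 PD-1cKO tumors were above every WT tumor, and the log2 change of 0.97 (SE 0.22, limma, adjusted p = 0.00284) was under the 2-fold limit. Leaving out 1 of 7 tumors (WT replicate 2, 3 or 5, PD-1cKO replicate 2, 6, 9 or 10) took it past that limit, at 1.00 to 1.05. Of its 1524 exon bases, 414 overlap the antisense gene Gm16008. The libraries were stranded, but no source states whether counting used strand. Whether reads of the pair were kept apart is therefore not known.

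Tnfrsf4 (OX40), the neighbour of Tnfrsf18, was at 1.38, 0.943, 2.11, 1.94 and 1.15 FPKM in the isotype tumors and at 2.90, 5.85, 5.56, 5.61 and 2.52 FPKM after 2 doses of PD-1 Ab. The groups do not overlap, and replicates 1 and 5 were the lowest of the treated tumors. The log2 change was 1.49 with an SE of 0.30 (limma, adjusted p = 0.00601). This call was lost without isotype replicate 1, 2 or 5 or PD-1 Ab replicate 2, 3 or 4, when the change was 1.35 to 1.47 with an adjusted p of 0.0136 to 0.0216 (limma). WT tumors ran from 0.840 through 2.18 to 3.78 FPKM and PD-1cKO tumors from 2.11 through 4.33 to 5.59 FPKM, with 7 of 10 above every WT tumor. Their log2 change was 0.96 (SE 0.23, limma, adjusted p = 0.00347), again under the 2-fold limit, and it was called, at 1.01 to 1.06, without WT replicate 2, 3 or 5 or PD-1cKO replicate 2.

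Of the receptors in the set, Tnfrsf9 (4-1BB) was the only one not called higher after 2 doses of PD-1 Ab. Which cells of the tumors held its RNA was not tested. Cultured MC-38 cells, with Cd3e listed at 0, held a mean of 2.25 FPKM of Tnfrsf9. Tnfrsf9 was at 55.1, 65.2, 81.6, 60.3 and 75.6 FPKM in the isotype tumors and at 62.0, 56.3, 40.8, 58.0 and 64.1 FPKM after 2 doses of PD-1 Ab. The groups overlap, and the log2 difference of −0.27 had an interval of −0.58 to 0.05 (95%, limma, adjusted p = 0.186). WT tumors ran from 19.2 through 36.2 to 65.4 FPKM and PD-1cKO tumors from 5.44 through 29.0 to 67.4 FPKM. Only 1 PD-1cKO tumor was above every WT tumor and 3 were below, with a log2 difference of −0.54 and an interval of −1.22 to 0.14 (95%, limma, adjusted p = 0.178). A rise of 2-fold lies outside both intervals.

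Tnfsf9, the ligand of 4-1BB, also had groups that overlapped in both studies. Isotype tumors were at 9.04, 7.03, 10.6, 7.38 and 9.78 FPKM and PD-1 Ab tumors after 2 doses at 8.32, 10.2, 8.77, 8.18 and 10.5 FPKM. The log2 difference was 0.08 with an interval of −0.23 to 0.38 (95%, limma, adjusted p = 0.714). In the conditional knockout study it ran from 2.34 through 2.76 to 4.99 FPKM in WT and from 0.551 through 2.91 to 4.37 FPKM in PD-1cKO tumors, a log2 difference of −0.37 (interval −0.94 to 0.21, limma, adjusted p = 0.279). Of its 1290 exon bases, 192 overlap the noncoding gene Gm11110.

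Tnfsf14 (LIGHT), a ligand that T cells themselves can display, was low everywhere and rose in both studies. It was at 0.585, 0.230, 0.378, 0.322 and 0.345 FPKM in the isotype tumors and at 1.35, 1.46, 1.56, 1.20 and 0.649 FPKM after 2 doses of PD-1 Ab. The lowest treated tumor was just above the highest isotype tumor, with a log2 change of 1.5 and an SE of 0.30 (limma, adjusted p = 0.00583). The call was lost without isotype replicate 2, 3, 4 or 5 or PD-1 Ab replicate 1, 2, 3 or 4, with a change of 1.38 to 1.51 and an adjusted p of 0.0109 to 0.0229 (limma). It was also lost with a pseudocount of 1 (log2 change 0.70) and with no filter on low values (limma, adjusted p = 0.0137). WT tumors ran from 0.126 through 0.525 to 0.996 FPKM and PD-1cKO tumors from 0.509 through 1.09 to 3.41 FPKM, and 7 of 10 PD-1cKO tumors were above every WT tumor. The log2 change was 1.26 with an SE of 0.32 (limma, adjusted p = 0.0050), and without PD-1cKO replicate 4, 7 or 8 it was 1.11 to 1.19 with an adjusted p of 0.01 to 0.0109 (limma). With a pseudocount of 1 the change was 0.65, and with no filter the adjusted p was 0.0119 (limma), so neither setting kept the call.

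Cd40, the receptor on antigen-presenting cells, was at 4.34, 5.55, 4.73, 5.26 and 7.81 FPKM in the isotype tumors. After 2 doses of PD-1 Ab it was at 13.4, 17.0, 18.5, 15.1 and 10.5 FPKM. The groups do not overlap, and the log2 change was 1.41 with an SE of 0.19 (limma, adjusted p = 0.00101). WT tumors ran from 4.92 through 7.74 to 12.2 FPKM and PD-1cKO tumors from 7.38 through 12.5 to 14.4 FPKM, and 6 of 10 PD-1cKO tumors were above every WT tumor. Their log2 difference of 0.53 (SE 0.16, interval 0.20 to 0.85) did not pass the test (limma, adjusted p = 0.0119). Of its 50-base stretches 0.334% occur in other genes.

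The remaining ligands were near the bottom of the scale. Tnfsf4, which pairs with OX40, was at 0.408, 0.604, 0.339, 0.921 and 0.653 FPKM in the isotype tumors and at 0.585, 0.643, 0.611, 0.708 and 0.655 FPKM after 2 doses of PD-1 Ab, so the treated tumors lay inside the isotype range (log2 difference 0.17, interval −0.43 to 0.78, limma, adjusted p = 0.672). In the conditional knockout study it missed the level needed for the limma test, with 0.144 through 0.377 to 0.648 FPKM in WT and 0.108 through 0.259 to 0.437 FPKM in PD-1cKO tumors (log2 difference −0.60, 2-sided permutation test, unadjusted p = 0.0138). Cd70, the ligand of CD27, was listed at 0 in all 5 isotype tumors and was at 0, 0.20, 0.45, 0.11 and 0 FPKM after 2 doses of PD-1 Ab (exact 2-sided permutation test, unadjusted p = 0.167). Cd40lg was listed at 0 in all 5 isotype tumors too, and no sample of the series exceeded 0.47 FPKM (2 doses, log2 difference 0.32, exact 2-sided permutation test, unadjusted p = 0.444). In PD-1cKO against WT tumors the log2 difference was −0.03 for Cd70 (permutation test, unadjusted p = 0.912) and 0.66 for Cd40lg (permutation test, unadjusted p = 0.0588). An exact 0 may be a level below detection.

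Among PD-1cKO tumors, then, 2 of the 7 tested members were called, Cd27 and Tnfsf14, both higher, against 4.2% of 15075 genes higher and 3.87% lower. These are 633 genes higher and 584 lower, and scaling by the median of ratios gave 949 higher and 312 lower, with 945 and 315 by the upper quartile and 902 and 327 over protein-coding genes. With a limit of 1.5-fold, Tnfrsf4 and Tnfrsf18 joined them, making 4, against 7.48% of genes called higher. The median log2 change was 0.96 over the members and −0.20 over all genes, and scaling by the median of ratios moved the latter to −0.02. With the run of sample identifiers as a covariate no member and no gene in the table was called, and the Cd27 change was 2.19 (limma, adjusted p = 0.0257) and the Tnfsf14 change 1.25 (limma, adjusted p = 0.105). The same fit moved Tnfrsf9 to −1.62 (limma, adjusted p = 0.0358) and Tnfsf9 to −1.25 (limma, adjusted p = 0.0488), neither of them called. Within the second run the single PD-1cKO tumor had 5.56 FPKM of Cd27 against 0.333 to 1.11 FPKM in 9 WT tumors. Within the third run the 2 PD-1cKO tumors had 0.780 and 2.54 FPKM of Cd27 against 0.661 FPKM in 1 WT tumor.

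**Figure D2:**
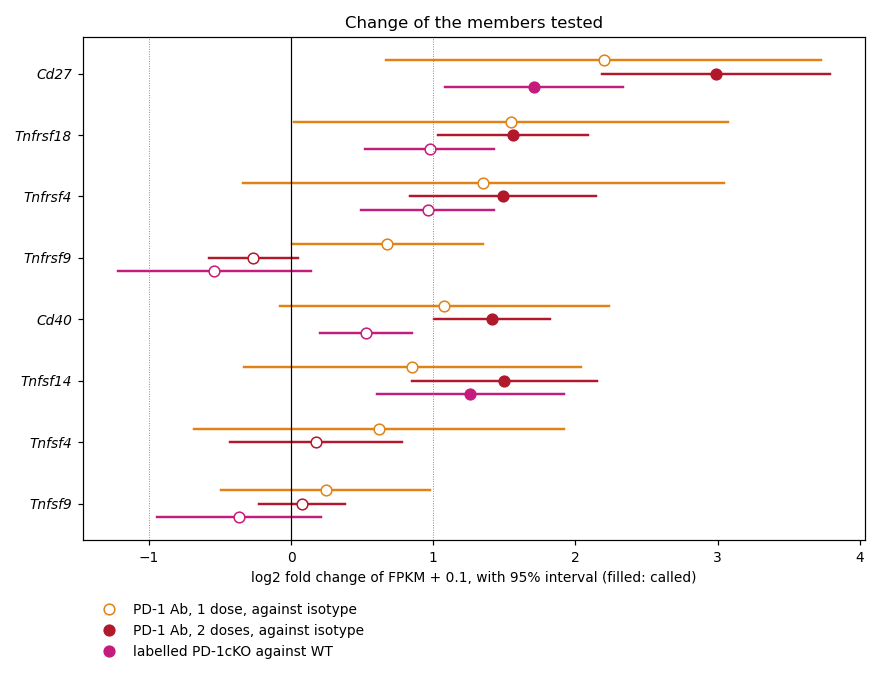
Log2 change of each tested member for 1 dose and 2 doses of PD-1 Ab against isotype and for PD-1cKO against WT, with 95% intervals and filled points where the change was called. Cd27 has the largest change among the members in all 3 comparisons (2.20, 2.99 and 1.71), and the intervals of Tnfrsf9 after 2 doses and in PD-1cKO tumors cross 0.

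After 1 dose of PD-1 Ab no member was called, as in the whole table (0% of 14556 genes, limma, with 895 at an unadjusted p under 0.05, among them 3 of the 8 tested members). Cd27 was at 0, 0.410, 1.22, 1.32 and 0.134 FPKM in the isotype tumors and at 1.10, 3.88, 1.25, 2.99 and 2.19 FPKM with PD-1 Ab. The groups overlap, with a log2 difference of 2.20 and an interval of 0.66 to 3.73 (limma, adjusted p = 0.490). No member had every treated tumor above every isotype tumor, against 3.59% of all genes. The median log2 difference was 0.96 over the members and 0.26 over all genes. Without the tumor high in mitochondrial RNA the Cd27 difference was 1.64 (limma, adjusted p = 0.175), Tnfrsf18 moved from 1.55 to 0.81, Tnfrsf4 from 1.35 to 0.51, Cd40 from 1.08 to 0.50, Tnfsf14 from 0.85 to 0.40, Tnfrsf9 from 0.68 to 0.36, Tnfsf4 from 0.62 to 0.02 and Tnfsf9 from 0.24 to −0.11, and none was called. Among all genes tested, 7 were called without that tumor.

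The differences between 1 and 2 doses and between the models were tested directly. For the doses, the change after 2 doses minus the change after 1 dose was called for no member and no gene (0% of 15289, limma, with 1182 genes and 1 member at an unadjusted p under 0.05). That member was Tnfrsf9 (−0.94, interval −1.68 to −0.21, limma, adjusted p = 0.623). The Cd27 difference of 0.79 had an interval of −0.93 to 2.51, which leaves a wide range of sizes. Without the tumor high in mitochondrial RNA the Tnfrsf9 difference was −0.63 (limma, adjusted p = 0.147), the Cd27 difference 1.35 (limma, adjusted p = 0.310), those of Tnfrsf4, Tnfrsf18, Cd40 and Tnfsf14 were 0.98, 0.75, 0.91 and 1.10, those of Tnfsf9 and Tnfsf4 were 0.18 and 0.16, and no member or gene was called. For the models, the PD-1 Ab change after 2 doses minus the PD-1cKO change was called for no member, against 0.0914% of 16404 genes (2585 genes and 3 members at an unadjusted p under 0.05). Cd27 differed by 1.28 (interval 0.23 to 2.33, limma, adjusted p = 0.239), Cd40 by 0.89 (interval 0.35 to 1.43, limma, adjusted p = 0.108) and Tnfrsf9 by 0.27 (interval −0.73 to 1.28).

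T cell genes moved with these changes. All 6 T cell markers were called higher after 2 doses of PD-1 Ab and in PD-1cKO tumors, and so were all 3 CD8 and CD4 genes. The summed FPKM of the T cell markers was 8.23 to 15.1 in isotype and 27.5 to 102 in PD-1 Ab tumors, and 7.30 to 26.9 in WT and 18.2 to 96.6 in PD-1cKO tumors. Cultured MC-38 cells summed to 6.80 to 7.34 FPKM, with 4 of the 6 markers listed at 0 in all cultures. Against culture, 4 of 5 tested T cell markers were called higher and 1 lower in isotype tumors after 2 doses. The sum therefore does not measure T cells alone. In bulk tumors fewer cells of a type and less RNA per cell cannot be told apart, so each member was also set against T cells (the mean log2 of the T cell receptor genes Cd3d, Cd3e and Cd3g) and against all leukocytes (Ptprc). All genes share the error of that reference in such a fit, so a permutation test per member is given for these ratios (2-sided, unadjusted, 30 tests). With 5 against 5 tumors the test covers every split exactly and 0.00794 is the smallest p it allows.

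Relative to Cd3, the other 4 receptors were lower, as was nearly the whole table (median of all genes −2.69 after 2 doses and −1.81 in PD-1cKO tumors). The Cd27 ratio did not pass the test. The log2 ratio of Cd27 to Cd3 was −1.80 ± 0.53 in isotype and −1.46 ± 0.29 in PD-1 Ab tumors (SD, n = 5 each), a difference of 0.34 with an SE of 0.27 (exact permutation p = 0.357). In WT and PD-1cKO tumors it was −1.54 ± 0.42 and −1.44 ± 0.43 (SD, n = 10 each), a difference of 0.10 (SE 0.19, permutation p = 0.600). For Tnfrsf9 the ratio was 4.34 to 5.49 in isotype and 1.18 to 3.64 in PD-1 Ab tumors, with no overlap and a difference of −2.91 (SE 0.48, exact permutation p = 0.00794). In PD-1cKO tumors the Tnfrsf9 difference was −2.15 (SE 0.54, permutation p = 0.00044), with 6 of 10 below every WT tumor. The Tnfsf9 difference was −2.57 (exact permutation p = 0.00794) and −1.97 (permutation p = 5.0e-05).

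Of the receptors that rose in level after 2 doses, Tnfrsf4, Tnfrsf18 and Cd40 had lower ratios to Cd3, and Cd27 did not. Tnfrsf4 differed by −1.16 after 2 doses, with all 5 treated tumors below every isotype tumor (exact permutation p = 0.00794), and by −0.65 in PD-1cKO tumors (permutation p = 0.0198). Tnfrsf18 differed by −1.09 (exact permutation p = 0.0238) and −0.63 (permutation p = 0.0102), Cd40 by −1.23 (exact permutation p = 0.0238) and −1.08 (permutation p = 0.00359), and Tnfsf14 by −1.15 (exact permutation p = 0.0159) and −0.35 (permutation p = 0.255). These are set against nearly the whole table: the median of all genes was −2.69 after 2 doses and −1.81 in PD-1cKO tumors, and 91.6% and 86% of genes were called lower. The same Cd3 value is subtracted from every gene of a tumor. Tnfrsf4, Tnfrsf18, Cd40 and Tnfsf14, whose log2 changes in level exceeded that of the median gene, therefore had to fall by less than it. This restates the change in level and is no further result. A ratio to Cd3 is no amount per T cell where other cells hold the RNA, and cultured MC-38 cells held Tnfrsf18 at a mean of 2.40 FPKM. In the same limma fits 3 members were called lower after 2 doses (Tnfrsf9, Tnfsf9 and Tnfsf4) and 3 in PD-1cKO tumors (Tnfrsf9, Tnfsf9 and Cd40).

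Relative to Ptprc, Cd27 alone among the members was higher in every treated tumor. The share of all genes whose groups separate fully in the ratios to Ptprc or Cd3 was not counted. Its log2 ratio was −5.42 to −4.41 in isotype and −4.04 to −2.16 in PD-1 Ab tumors, a difference of 1.57 (SE 0.39, exact permutation p = 0.00794). In WT tumors it was −6.24 to −5.06 and in PD-1cKO tumors −4.89 to −3.52, so all 10 were above every WT tumor, with a difference of 1.28 (SE 0.18, permutation p = 2.0e-05). Tnfrsf4, Tnfrsf18, Cd40 and Tnfsf14 differed by 0.00 to 0.14 after 2 doses, with exact permutation p values from 0.746 to 0.992. In PD-1cKO tumors Tnfsf14 differed by 0.83 (permutation p = 0.0159), Tnfrsf18 by 0.54 (permutation p = 0.0282), Tnfrsf4 by 0.53 (permutation p = 0.0875) and Cd40 by 0.10 (permutation p = 0.745). Tnfrsf9 was lower per Ptprc by a log2 difference of −1.68 (exact permutation p = 0.0159), and in PD-1cKO tumors it differed by −0.97 (permutation p = 0.0826). The median of all genes was −1.46 and −0.63, and 68.2% and 11.7% of genes were called in either direction, against 3 members (Cd27 higher, Tnfrsf9 and Tnfsf9 lower) and 1 member (Cd27, higher). By direction, 78 of 15061 genes were called higher and 10189 lower after 2 doses. In PD-1cKO tumors 219 of 15074 were called higher and 1543 lower. T cell markers also rose relative to Ptprc, with a median of 1.08 after 2 doses (2 of 6 called higher) and 1.25 in PD-1cKO tumors (5 of 6).

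**Figure D3:**
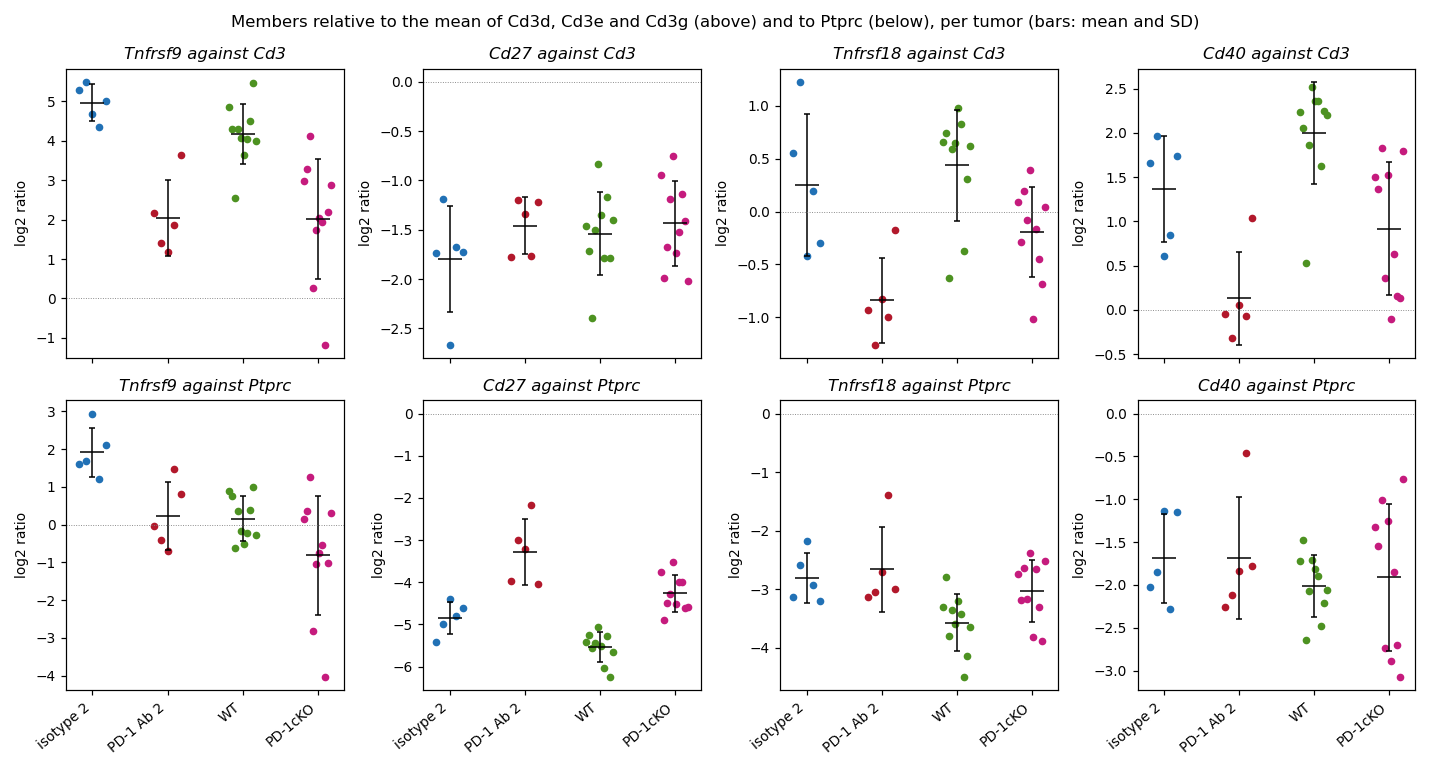
Log2 ratio of Tnfrsf9, Cd27, Tnfrsf18 and Cd40 to the mean of the Cd3 genes (above) and to Ptprc (below) in isotype and PD-1 Ab tumors after 2 doses and in WT and PD-1cKO tumors, each point 1 tumor. The Tnfrsf9 ratio to Cd3 is 4.34 to 5.49 in isotype and 1.18 to 3.64 in PD-1 Ab tumors, while the Cd27 ratios to Cd3 overlap.

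The same values are given here as linear ratios and are no further test. Mean Cd3e was 2.20 FPKM in isotype and 13.3 in PD-1 Ab tumors, and 1.77 in WT and 6.96 in PD-1cKO tumors. A gene with no change in level therefore falls in such a ratio. On the log2 scale the median of all genes relative to Cd3 was −2.69 and −1.81, against −2.91 and −2.15 for Tnfrsf9. For each FPKM of Cd3e the isotype tumors held 30.8 FPKM of Tnfrsf9 and the PD-1 Ab tumors 4.22 (ratios of group means), and the WT and PD-1cKO tumors held 21.1 and 4.25. For Cd27 the same ratios were 0.247 and 0.404, and 0.349 and 0.362. The receptor to ligand ratio of Tnfrsf9 to Tnfsf9 was 7.71 in isotype and 6.13 in PD-1 Ab tumors, and 11.8 in WT and 11.0 in PD-1cKO tumors.

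**Figure D4:**
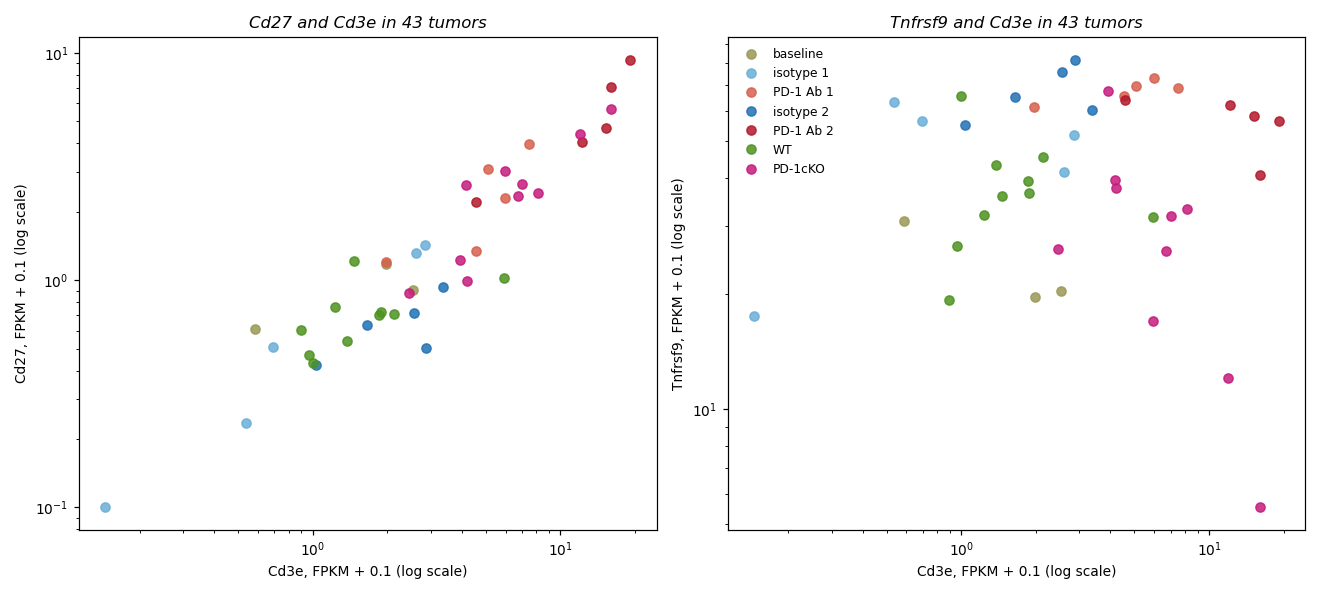
Cd27 (left) and Tnfrsf9 (right) against Cd3e in the 43 tumors, as FPKM + 0.1 on log axes, coloured by group. Within groups Cd27 follows Cd3e (r of 0.86 in the antibody study without the tumor high in mitochondrial RNA and 0.76 in the conditional knockout study) and Tnfrsf9 does not (r of −0.38 and −0.45).

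Within groups, tumors differed in the same way. Deviations of log2 values from each group's mean were correlated over 22 tumors of the antibody study (without the tumor high in mitochondrial RNA) and over the 20 of the conditional knockout study, as a description of tumors that share libraries' scaling and cell makeup. Cd27 and Cd3e gave r = 0.86 and 0.76. Tnfrsf9 and Cd3e gave −0.38 and −0.45, and Tnfrsf9 and Cd27 gave −0.44 and −0.62. With the tumor high in mitochondrial RNA included, Tnfrsf9 and Cd3e gave 0.32 over 23 tumors, so that value rests on 1 sample. The neighbours Tnfrsf4 and Tnfrsf18 gave 0.41 and 0.62, Tnfrsf9 and Tnfsf9 gave 0.25 and 0.79, and Cd40 and Cd3e gave 0.69 and −0.09.

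**Figure D5:**
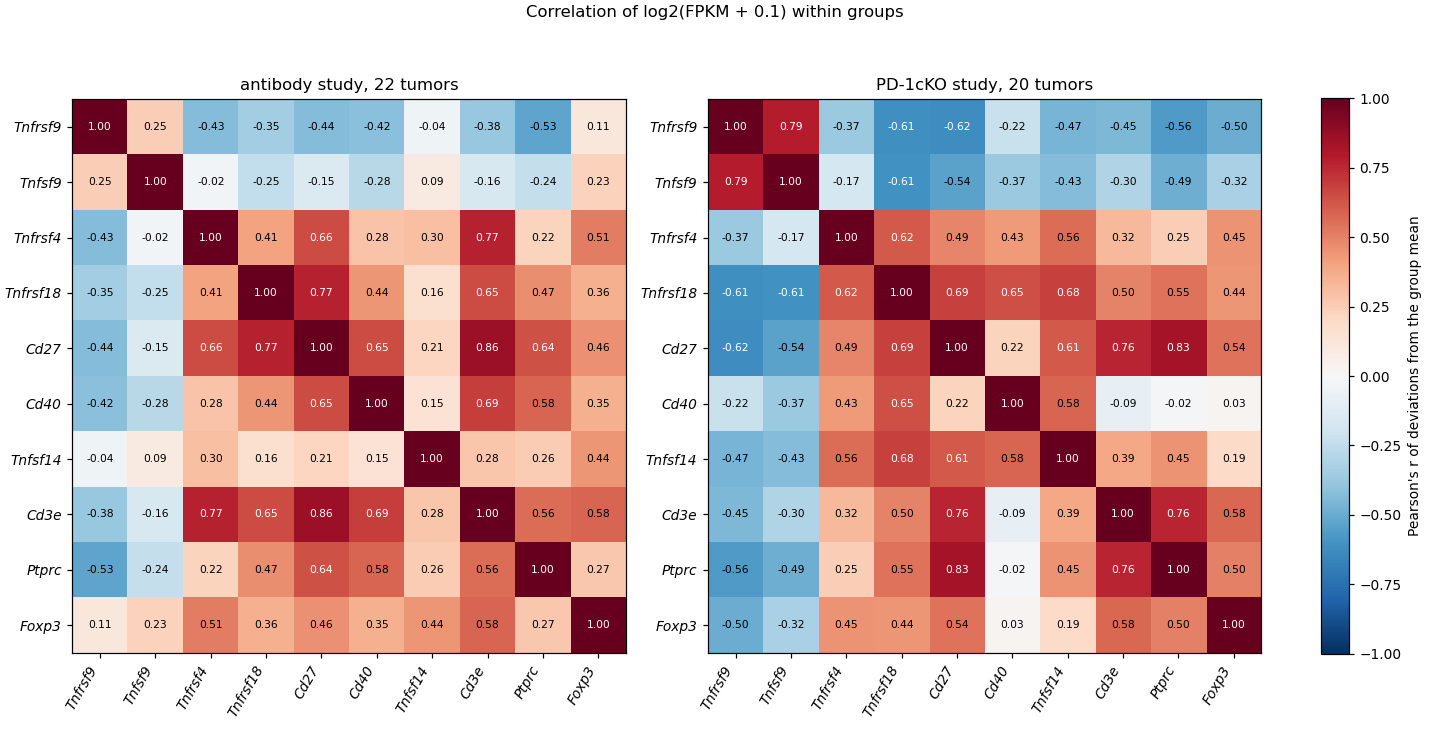
Pearson r between members, and with Cd3e, of deviations from the group mean on the log2 scale, over 22 tumors of the antibody study (left) and 20 tumors of the conditional knockout study (right). Cd27 and Cd3e are at 0.86 and 0.76, whereas Tnfrsf9 and Cd27 are at −0.44 and −0.62.

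Markers of other tissues were measured in the same tumors. The summed FPKM of 4 lymph node markers was 1.38 to 6.64 in isotype and 4.56 to 51.1 in PD-1 Ab tumors, and 0.855 to 11.5 in WT and 0 to 70.3 in PD-1cKO tumors. The summed FPKM of 2 adipose markers was 1.06 to 9.54 and 3.67 to 78.7 in the first pair of groups, and 0.501 to 13.7 and 0.658 to 171 in the second. None of these markers was at 0 in all tumors of either pair of groups. Called higher after 2 doses were 3 of 4 macrophage, 2 of 4 regulatory T cell, 2 of 6 dendritic cell, 1 of 2 endothelial, 1 of 2 skeletal muscle, 1 of 2 adipose and 1 of 2 tested lymph node markers, and 0 of the NK cell, B cell, epithelial, fibroblast and skin markers by the same limma fit. The 1 tested neutrophil marker, S100a8, was called lower after 2 doses (limma, adjusted p = 0.00836). Over all genes tested, 5.03% were called higher and 0.272% lower after 2 doses, and 4.2% were called higher in PD-1cKO tumors. In PD-1cKO tumors 1 of 4 macrophage, 1 of 3 regulatory T cell, 1 of 3 fibroblast and 3 of 3 neutrophil markers were called higher, and neutrophil markers summed to 0.511 to 4.38 in WT and 1.69 to 244 in PD-1cKO tumors. Their part in the changes of the members was not tested.

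The tumor itself and the cultured cells differed sharply in the members. Cultured MC-38 cells had Tnfrsf9 at 1.75, 2.34 and 2.65 FPKM and Tnfsf9 at 6.96, 6.19 and 6.34 FPKM, so the ligand exceeded the receptor, at a ratio of receptor to ligand of 0.345. They also held Tnfrsf18 at 1.95, 2.67 and 2.59 FPKM, while Tnfsf14 was listed at 0 in all 3. Cd3e was listed at 0 in all 3 cultures as well. Tnfsf9 and Tnfrsf18 had RNA in MC-38 cells alone at levels not far from those of isotype tumors after 2 doses.

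In the isotype tumors after 2 doses, 5 of 7 tested members were higher than in culture, against 14.2% of 15199 genes (2153 higher and 1078 lower, or 2227 and 561 with protein-coding scaling). Cd40, Tnfsf4 and Cd27 reached 0.5 FPKM only in the tumors (culture means 0.0235, 0.0085 and 0.156 FPKM). They could therefore enter the test only by being higher there, and the count of members carries that selection. Cd40 was listed at 0 in 2 cultures and at 0.0706 FPKM in the third, and its log2 difference of 5.53 (SE 0.26, limma, adjusted p = 1.92e-07) depends on the pseudocount, as does that of Tnfsf4, which was listed at 0 in 2 cultures. Tnfrsf9 was 4.85 higher on the log2 scale (SE 0.16, limma, adjusted p = 2.13e-08) and Tnfsf4 2.60 higher (SE 0.34, limma, adjusted p = 0.000205). Tnfrsf4 (1.27, limma, adjusted p = 0.00944) and Cd27 (1.30, limma, adjusted p = 0.00933) were close to the limit. The Tnfrsf4 call was lost without any of the 3 cultures or isotype replicate 1, 3, 4 or 5 (0.97 to 1.43, limma, adjusted p 0.0111 to 0.0462), and the Cd27 call without any of the 3 cultures or isotype replicate 2 or 5 (1.09 to 1.44, limma, adjusted p 0.0164 to 0.0498). Tnfsf9 (0.41, limma, adjusted p = 0.0430) and Tnfrsf18 (0.04, limma, adjusted p = 0.892) did not pass.

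Baseline tumors differed from the same isotype tumors in 1 of the 7 members tested, Tnfrsf9, against 0.595% of 14967 genes called (64 higher and 25 lower, or 17 and 19 with protein-coding scaling). It was at 20.2, 19.5 and 30.8 FPKM at baseline, below all 5 isotype tumors after 2 doses (log2 difference −1.53, SE 0.18, limma, adjusted p = 0.00327). Without baseline replicate 1 or 2 or isotype replicate 5 the difference was −1.49 to −1.42 with an adjusted p of 0.0134 to 0.0265 (limma). Cd27 at baseline was at 0.808, 1.07 and 0.511 FPKM, and Cd40 at 7.71, 8.84 and 4.01 FPKM, both overlapping the isotype tumors. Tnfsf14, too low for the limma test here, was at 0.208, 0 and 0.107 FPKM, below all 5 isotype tumors, and this was not tested.

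Within the antibody study and the cultures, the 6 groups were ordered by mean level for each member. Tnfrsf9 had the highest mean of the members in every tumor group, up to 67.7 FPKM after 1 dose of PD-1 Ab, and 2.25 FPKM in culture, where Tnfsf9 (6.50 FPKM) and Tnfrsf18 (2.40 FPKM) were higher. Cd27 ran from 0.156 FPKM in culture to 5.38 FPKM after 2 doses of PD-1 Ab, with 2.28 FPKM after 1 dose of PD-1 Ab. Between neighbours in each member's order the ranges were separate only for baseline over culture (Tnfrsf9), isotype after 2 doses over culture (Tnfrsf4, Cd27 and Cd40) and PD-1 Ab after 1 dose over baseline (Cd27). All other neighbours overlapped. The 1-dose isotype group includes here the tumor high in mitochondrial RNA, and some of these overlaps rest on it. In the others of that group Tnfrsf9 was at 41.5 to 63.1 FPKM, above the baseline tumors (19.5 to 30.8 FPKM). Tnfsf4 was at 0.651 to 0.833 FPKM in them, above the cultures (0 to 0.0255 FPKM). The order was not redone without that tumor.

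Further binding partners in these receptor and ligand pairs were examined as a list of 4. Tnfrsf14 (HVEM), a receptor of LIGHT, was the 1 of 3 tested genes called higher after 2 doses (1.71, limma, adjusted p = 0.00409), with group means of 5.90 and 17.5 FPKM. In PD-1cKO tumors it was at 28.5 against 18.3 FPKM, with a log2 difference of 0.64 that was under the 2-fold limit (limma, adjusted p = 0.000792). Ltbr, the other LIGHT receptor on stromal and myeloid cells, differed by −0.03 after 2 doses (limma, adjusted p = 0.799), and Btla, which binds HVEM, by 1.01 (limma, adjusted p = 0.112). Tnfsf18, the GITR ligand, stayed at or below 0.46 FPKM and was not tested.

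Among 25 other TNF receptors and ligands, 4 of 21 tested rose after 2 doses and 3 of 18 in PD-1cKO tumors, against 5.03% and 4.2% of all genes. Fasl, the death ligand of cytotoxic T cells, rose by 2.55 (limma, adjusted p = 0.00123) and 1.62 (limma, adjusted p = 0.00367), and Ltb, the membrane anchor of lymphotoxin, by 2.45 (limma, adjusted p = 0.00235) and 1.82 (limma, adjusted p = 0.00214). Tnfsf10 (TRAIL, 1.84, limma, adjusted p = 0.00124) and Tnfrsf11a (RANK, limma, adjusted p = 0.0045) were called after 2 doses, and Tnfsf13 (APRIL, 1.13, limma, adjusted p = 0.00214) in PD-1cKO tumors. Of 20 TRAF adaptors and NF-kB genes, which act below the receptors, 0 were called by limma after 1 dose, after 2 doses or in PD-1cKO tumors (0, 9 and 8 at an unadjusted p under 0.05). In the same fits 895 of 14556, 5977 of 15062 and 7968 of 15075 genes were at an unadjusted p under 0.05. With 0%, 5.03% and 4.2% of all genes called higher there, 0 of 20 is near the share of all genes. In isotype tumors 5 of 20 were higher than in culture, against 14.2% of all genes (Traf5, Tnfaip3, Nfkbie, Traf1 and Relb, named here after their values were seen).

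The genes most like each member across the 43 tumors were listed from 12099 genes by Pearson r of log2 deviations from the group means, as a description of tumors that share scaling and cell makeup. Cd27 was closest to Il2rb (r = 0.92, and 0.89 without the tumor high in mitochondrial RNA), Cd28 (0.89 and 0.88) and Unc13d (0.89 and 0.86). Tnfrsf9 was closest to Spry4 (0.91 and 0.90), Ndrg1 (0.91 and 0.89) and Egln3 (0.89 and 0.88). Tnfrsf18 was closest to Stat6 (0.89 and 0.75), and Tnfrsf4 to Grk2 (0.85), which went to 0.55 without that tumor. Cd40 was closest to Il4ra (0.91 and 0.80), Tnfsf9 to Jmjd6 (0.93) and Tnfsf14 to Mmp19 (0.81 and 0.76).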

How the data were processed

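The libraries were stranded and held total RNA depleted of ribosomal RNA. The authors aligned their 50-base paired-end reads to the mouse genome (build B38, Ensembl annotation) in Omicsoft Array Studio. They deposited 1 table of FPKM values for 48795 genes and 46 samples. The table holds no read counts or totals, and the whole reads could not be recovered. Of the genes, 99.1% matched GENCODE M21 by identifier.

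FPKM values were tested as log2(FPKM + 0.1) with limma 3.58.1 (R 4.3.3, eBayes with a trend), using only the groups compared and genes whose mean reached 0.5 FPKM in 1 of them. Calls needed a Benjamini-Hochberg adjusted p under 0.01 over all tested genes and a change of at least 2-fold. The study's own test was on counts, which this table does not hold. Members below the filter and ratios to Cd3 or Ptprc were tested by permutation (scipy 1.17.1; exact for 5 against 5, otherwise 100000 resamples). The relative fits share the error of their reference across all genes, so their limma p-values are too small. The script was tested on simulated data with known changes. Alternatives were the pseudocount, filter, scaling, weights, trend, fold limit, groups in the fit, replicate block, run of identifiers and each sample left out. The permutation tests per ratio and the likeness without 1 tumor were added after seeing the data.

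The members and all lists were chosen with earlier results of these data known. The genes named are the 10 members, the 3 called genes of each other list with the largest change in the 2-dose or PD-1cKO comparison, and the 3 genes most like each member by r. The rest of the partner list, the other called TNF family genes, the called neutrophil marker and 5 TRAF and NF-kB genes were named after their values were seen. Groups come from the sample labels, whose samples are separate tumors or cultures, and p-values measure the spread between them. Promoter sequences are from RefSeq (GRCm38.p6). Figures were drawn with matplotlib 3.10.9.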

Additional observations from a re-analysis of the deposited data

Results flagged for a closer look

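In 6 of 58 sets of member values within 1 group, the highest or lowest sample stood far from the rest by Dixon's test. Its chance rate of about 1 in 20 holds for normally spread values. Some sets here are mostly 0, so the count cannot be judged against that rate. In the 1-dose isotype group, replicate 1 had 2.66 FPKM of Tnfsf9 against 8.92 to 9.43 FPKM in the others, and Tnfsf4 was listed at 0 there against 0.651 to 0.833 FPKM. It is the tumor with 54.6% mitochondrial FPKM. In the same group replicate 3 alone had Cd70 (0.119 FPKM) and Cd40lg (0.08 FPKM) above 0. With 1 dose of PD-1 Ab, replicate 4 was listed at 0 for Cd70 against 0.106 to 0.145 FPKM in the others. WT replicate 2 had 0.262 FPKM of Cd40lg against 0 to 0.0596 FPKM. The low values of Cd70 and Cd40lg are near the bottom of the scale.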

How the results depend on the processing

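The table holds no read totals, so no detection limit was set for members near 0 FPKM, and counts of called members are small. After 2 doses 5 members were called, and 3 with no filter on low values, 2 with all tumor groups in 1 fit and 3 to 5 without 1 tumor. In PD-1cKO tumors 2 were called, and 1 with a pseudocount of 1 or no filter, 4 with median-of-ratios, upper-quartile or protein-coding scaling, 4 with a fold limit of 1.5 or none, 0 with the run of identifiers as a covariate and 1 to 4 without 1 tumor. Against cultured cells 5 were called, and 2 with a pseudocount of 1, 3 with a filter at 1 FPKM or all 8 groups in 1 fit, and 3 to 4 without 1 sample. At baseline 1 was called, and 0 with no filter or all tumor groups in 1 fit and 0 to 1 without 1 sample. For the difference between models and between doses, 0 were called, with 3 and 1 under array weights and 0 to 0 without 1 tumor, and 0 were called after 1 dose under every alternative. Relative to Cd3, 3 members after 2 doses became 5 with a pseudocount of 1, no filter or array weights, 7 in the permutation test (unadjusted p under 0.05 and 2-fold, a looser limit than the adjusted one) and 3 to 6 without 1 tumor, and 3 in PD-1cKO tumors became 5 with no filter and 2 to 3 without 1 tumor. Relative to Ptprc, 3 after 2 doses became 1 to 4 without 1 tumor, and 1 in PD-1cKO tumors became 0 with a pseudocount of 1, 2 with array weights and 1 to 2 without 1 tumor. The cause was not tested, save that fewer samples or more genes tested are part of the settings' construction.

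Replicate numbers do not pair the samples: same-numbered samples had correlations of −0.21 to 0.16, and 1 of 5 correlated best with its own number after 1 dose, 1 of 3 at baseline and 0 elsewhere. With a replicate block 3 members were called after 2 doses, 1 in PD-1cKO tumors, 3 against cultured cells and 0 at baseline, and relative to Ptprc 0 in each study. Over all genes the block gave 316 calls in place of 799 after 2 doses, 0 in place of 89 at baseline, 1 in place of 15 between models, and relative to Ptprc 1570 in place of 10267 and 2 in place of 1762.

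Other counts of all called genes moved by over 1.5 times. After 2 doses, 799 became 450 with no filter and 1773 with array weights. In PD-1cKO tumors 1217 became 617 with a pseudocount of 1, 589 with array weights, 2835 and 3217 with a fold limit of 1.5 and none, and 0 with the run covariate. After 1 dose 0 became 2 with protein-coding scaling, 10 with all tumor groups in 1 fit and 22 with array weights, and between doses 0 became 506 with array weights and 1 with no filter. At baseline 89 became 135 with a pseudocount of 1, 57 with no filter, 36 with protein-coding scaling, 149 with all tumor groups in 1 fit and 398 with array weights. Between models 15 became 25 with a pseudocount of 1, 28 with no filter, 2, 1 and 3 with the other scalings, 0 with all tumor groups in 1 fit, 1 with the run covariate and 603 with array weights. Against culture 3231 became 5621 with no fold limit, and relative to Ptprc in PD-1cKO tumors 1762 became 1059 and 600 with a pseudocount of 1 and no filter. Relative to Cd3, no filter gave 24655 in place of 13792 and 26391 in place of 12967. Without 1 sample the counts ran from 375 (PD-1 Ab replicate 3) to 1534 (PD-1 Ab replicate 5) after 2 doses, 743 (PD-1cKO replicate 4) to 1871 (PD-1cKO replicate 9), 13 (baseline replicate 2) to 166 (isotype replicate 3) at baseline and 2 (PD-1 Ab replicate 3) to 55 (PD-1 Ab replicate 5) between models. Relative to Ptprc they ran from 6371 (PD-1 Ab replicate 3) to 12356 (PD-1 Ab replicate 4) and from 22 (WT replicate 6) to 3469 (PD-1cKO replicate 10), and after 1 dose from 0 to 7 (isotype replicate 1).

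In 37 fits the direction of a member that was not called turned. After 1 dose, Tnfsf9 went to −0.0073 and −0.0253 under median-of-ratios and upper-quartile scaling, −0.13 with array weights and −0.11 without isotype replicate 1 (−0.11 to 0.34 without 1 tumor), and Tnfsf4 to −0.0539 with array weights. Tnfsf9 in PD-1cKO tumors went to 0.0166 with array weights. Against culture Tnfrsf18 went to −0.00678 with protein-coding scaling and was −0.0952 to 0.145 without 1 sample, and at baseline Tnfsf9 was −0.129 to 0.0385 without 1 sample. Between models Tnfrsf9 went to −0.26 with array weights, and Tnfsf14 to −0.018 and −0.0558 under median-of-ratios and upper-quartile scaling. Between doses Tnfsf9 went to 0.109, 0.036 and 0.125 under the 3 scalings and 0.194 with array weights, and was −0.263 to 0.184 without 1 tumor. Tnfrsf4 went to −0.0332 with protein-coding scaling and was −0.269 to 0.982 without 1 tumor, Tnfsf4 went to 0.204 with array weights and was −0.647 to 0.158 without 1 tumor, and Tnfrsf18 was −0.314 to 0.75 without 1 tumor.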
